A study of Mus musculus with 2 samples.

Results

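The lung neutrophils of the series were 67 cells of the 10088 that passed the filters on cells, from 10901 deposited barcodes. They were chosen by their own transcripts. A cell had at most 20% mitochondrial UMIs (unique molecular identifiers, 1 for each captured transcript), at most 20000 UMIs and at least 500 genes. It held at least 20 UMIs of S100a8 plus S100a9 and at least 2 of Retnlg plus Csf3r plus Cxcr2. It held no UMI of Cd79a, Cd3g, C1qa or Fscn1, which mark B cells, T cells, interstitial macrophages and mature dendritic cells, and fewer than 10 UMIs of the alveolar macrophage genes Chil3, Ear1 and Krt79 per 10000. By pool, 24 came from asthma mice, 14 from tolerance mice and 29 from control mice.

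Neutrophils are short-lived phagocytes that are made in the bone marrow, circulate in blood and marginate in lung capillaries, and enter tissue along gradients of CXCR2 ligands and formyl peptides. Their granules are filled in sequence during maturation, from primary granules with myeloperoxidase and serine proteases, through secondary granules with lactoferrin, to tertiary granules with gelatinase, so that a mature cell holds granule proteins whose transcripts are already gone. S100a8 and S100a9 encode calprotectin, the most abundant protein of their cytosol, Csf3r the receptor for the growth factor G-CSF, Cxcr2 the receptor for chemokines such as Cxcl2, and Retnlg a resistin-like secreted protein of mouse myeloid cells.

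The mice were female C57BL/6J. The asthma mice were sensitized with ovalbumin in Alum into the peritoneum and challenged with ovalbumin through the nose. The tolerance mice inhaled ovalbumin before the same asthma protocol. The control mice received Alum without ovalbumin, and saline through the nose. Lungs of several mice were combined for each treatment, digested, and sorted for dendritic cells and macrophages with antibodies to CD11c, CD11b, MerTK, CD64, Ly6C and MHC class II, so neutrophils were not the aim of the sort and their number depends on its gates. The 3 sorted suspensions were tagged with hashtag antibodies, stained with a tagged antibody to CLEC12A, mixed in equal numbers and loaded on 2 lanes of a droplet platform. Each treatment was therefore 1 pool of mice read in 2 technical lanes, and a difference between treatments has no replicate among mice. A difference between neutrophils and other cells was measured in 3 pools. The 6 matrices held between 1458 and 2182 barcodes and between 7897139 and 11459855 UMIs each, and no barcode was shared between libraries.

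Of the cells that passed the filters, 85 met the S100 floor, 81 of these also met the floor on the other 3 genes, 75 held none of the 4 excluded genes, and 67 were under the macrophage limit. The values that chose them describe the group and were not tested. S100a8 had 3 to 355 UMIs per neutrophil with a median of 82, and S100a9 had 9 to 351 with a median of 99, so that all 67 cells held both. Retnlg was found in 63 of the 67 with 1310 UMIs in all, Csf3r in 58 with 139 UMIs, and Cxcr2 in 44 with 74 UMIs. In the 8538 other myeloid cells the same genes had 1780 UMIs of S100a8, 1233 of S100a9, 196 of Retnlg, 699 of Csf3r and 343 of Cxcr2. Of genes the rule did not use, Ly6g, which encodes the surface antigen used to stain mouse neutrophils, had 9 UMIs in 7 of the 67 neutrophils and 2 UMIs in 1 of the 8538 other myeloid cells. The cells just inside the S100 floor numbered 6, with 20, 30, 33, 35, 36 and 37 UMIs of S100a8 plus S100a9. The 3 cells just outside it had 12, 15 and 17. A further 9 barcodes met the whole rule but had fewer than 500 genes, from 271 to 494.

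The promoters of 3 neutrophil genes and of the chemokine gene Cxcl2 are shown because S100a9 and Retnlg belong to the rule, Lcn2 and Cxcl2 are among the higher genes described below, and each holds the core letters of a motif that belongs to a factor whose own gene is described below or that is known for inflammatory genes. Each is 300 bases from the RefSeq tables for GRCm38.p6, 250 before the start of the gene and 50 after it, written 5′ to 3′ on the strand of the gene, with matches in capitals. S100a9 lies on chromosome 3 (chr3:90695672-90695971, minus strand), Retnlg on chromosome 16 (chr16:48872358-48872657, plus strand) and Lcn2 on chromosome 2 (chr2:32387690-32387989, minus strand), and the capitals in these mark TTGCNNAA, a core of C/EBP sites. Cxcl2 lies on chromosome 5 (chr5:90903649-90903948, plus strand), and the capitals mark a core of NF-kB sites, 10 letters with 1 of them free.
S100a9: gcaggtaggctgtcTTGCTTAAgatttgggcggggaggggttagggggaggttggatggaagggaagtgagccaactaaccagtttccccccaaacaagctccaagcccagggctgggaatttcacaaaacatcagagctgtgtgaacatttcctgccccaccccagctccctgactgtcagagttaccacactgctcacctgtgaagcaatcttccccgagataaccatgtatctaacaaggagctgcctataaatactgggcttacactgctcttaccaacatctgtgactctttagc
Retnlg: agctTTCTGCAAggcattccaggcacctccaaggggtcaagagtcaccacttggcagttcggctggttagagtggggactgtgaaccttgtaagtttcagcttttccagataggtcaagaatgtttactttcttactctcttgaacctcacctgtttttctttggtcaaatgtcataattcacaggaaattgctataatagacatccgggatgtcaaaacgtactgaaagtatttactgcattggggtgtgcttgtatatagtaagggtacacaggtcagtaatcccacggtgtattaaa
Lcn2: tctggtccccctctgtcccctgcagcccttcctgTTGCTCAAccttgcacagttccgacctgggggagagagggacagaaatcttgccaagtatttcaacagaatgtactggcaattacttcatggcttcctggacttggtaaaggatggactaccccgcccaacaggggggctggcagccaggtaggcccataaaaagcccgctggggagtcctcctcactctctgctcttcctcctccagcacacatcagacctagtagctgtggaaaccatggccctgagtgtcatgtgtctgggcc
Cxcl2: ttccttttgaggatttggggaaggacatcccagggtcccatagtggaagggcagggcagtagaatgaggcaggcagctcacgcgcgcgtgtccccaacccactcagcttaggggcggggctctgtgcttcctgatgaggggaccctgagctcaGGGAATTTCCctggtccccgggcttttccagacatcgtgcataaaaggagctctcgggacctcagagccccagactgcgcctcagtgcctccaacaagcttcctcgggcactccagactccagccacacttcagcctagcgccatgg
The matches begin 236, 246, 216 and 97 bases before the starts of S100a9, Retnlg, Lcn2 and Cxcl2. Both strands were searched. TTGCNNAA was found in 10.8% of the 32851 promoters in the table and the NF-kB core in 0.411%. Of the 5 marker genes, 2 held TTGCNNAA. Of the 15 genes named below as higher in neutrophils, 9 were in the table and 1 of them, Lcn2, held it. These 4 promoters were picked because they hold a match, and a match is a run of letters, not a bound site.

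Neutrophils made up 0.596% of the cells in the asthma pool (24 of 4025, exact 95% binomial interval 0.382% to 0.886%), 0.518% in the tolerance pool (14 of 2701, 0.284% to 0.868%) and 0.863% in the control pool (29 of 3362, 0.578% to 1.24%). The intervals overlap, and they cover counting error only. The lanes of the control pool did not give the same share. There it was 0.354% in lane 1 (6 of 1696, 0.130% to 0.768%) and 1.38% in lane 2 (23 of 1666, 0.877% to 2.06%), while the asthma pool had 9 and 15 cells and the tolerance pool 6 and 8 cells in lanes 1 and 2. Lane 1 alone put the control pool lowest, at 0.354%, against 0.436% in the asthma pool and 0.439% in the tolerance pool. The order of the pools thus rested on lane 2, and with 1 pool of mice for each treatment it was not tested.

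**Figure D1:**
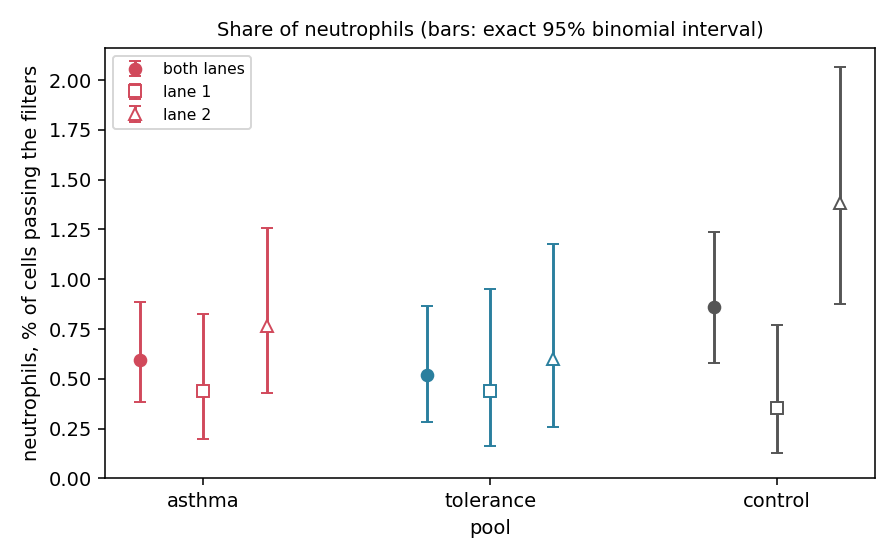
Share of neutrophils among the cells that passed the filters (y axis, percent) in the asthma, tolerance and control pools (x axis), for both lanes together (filled circles) and for each lane (open squares and triangles), with exact 95% binomial intervals. The 2 lanes of the control pool stand apart, at 0.354% and 1.38%, while those of the other pools overlap.

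Neutrophils were shallow libraries. They had a median of 1670 UMIs (942 to 10322) and 633 genes (513 to 3103), against medians of 2324 UMIs and 1199 genes in nonclassical monocyte-like cells. Mitochondrial transcripts took a median of 0.524% of the UMIs of a neutrophil, against 2.32% in nonclassical monocyte-like cells. S100a8 plus S100a9 took 1.30% to 32.4% of a cell's UMIs, with a median of 10.3%.

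A set of 8 neutrophils with at least 1200 genes stood apart, 4 in the asthma pool, 1 in the tolerance pool and 3 in the control pool. They held 38780 of the 132506 neutrophil UMIs, and their mitochondrial share had a median of 2.45%, against 0.475% in the other 59. Transcripts of MHC class II (Cd74, H2-Aa, H2-Ab1 and H2-Eb1), which load and present peptides on antigen-presenting cells, were concentrated in them. Of 687 such UMIs, 657 were in the 8 cells and 30 in the other 59, and 3 cells with 327, 223 and 89 UMIs held 639 of them. Transcripts of the nonclassical monocyte genes Treml4, Ace, Eno3 and Adgre4 were also mostly in the 8 cells, with 61 of 72 UMIs, but were spread more widely. The 3 cells with the most held 41 of the 72, and 1 of these, with 9 UMIs, was outside the 8. The cell with 89 MHC class II UMIs held 0 of them. Only 1 of the 67 neutrophils was among the 2% of cells with the highest doublet scores, and it was 1 of these 8, the cell of the tolerance pool. The part of doublets in the 8 cells was not tested beyond that. Results that rest on the 8 cells are given below with and without them.

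**Figure D2:**
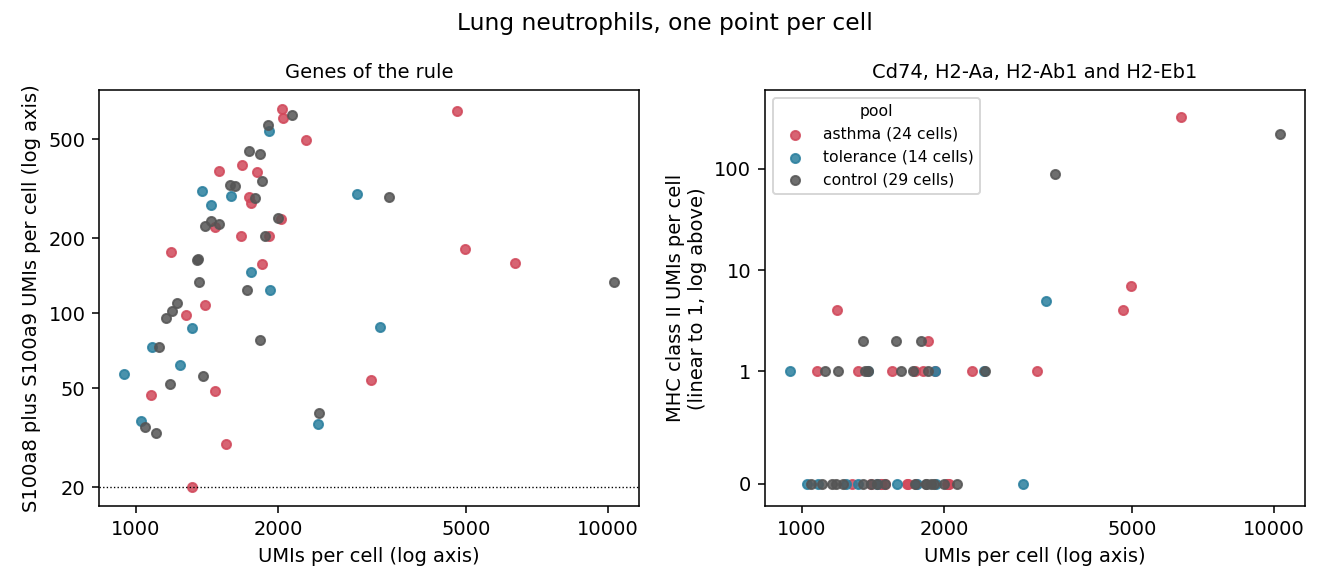
S100a8 plus S100a9 UMIs (left, y axis, log) and MHC class II UMIs (right, y axis) in each of the 67 neutrophils against its UMIs (x axes, log), with a point for each cell and a colour for each pool. The dotted line is the floor of 20 UMIs, and 3 cells hold 327, 223 and 89 MHC class II UMIs while most of the others hold 0 or 1.

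Neutrophils were compared with all other myeloid cells, namely alveolar and interstitial macrophage-like, mature dendritic, cDC1-, cDC2-, and nonclassical and classical monocyte-like cells, by summing the UMIs of each side in each pool (3 sums against 3) and fitting edgeR's quasi-likelihood model with the pool as a block. The 36 genes that defined neutrophils or the other classes were left out of the sums and tests. Because cells were sorted into the sides by their own transcripts, any gene that travels with the rule's genes had to differ. The p-values set the size of a difference against counting error and the variation between the 3 pools, estimated with the help of all tested genes. A gene can be called though its pools were uneven. The p-values are no independent evidence that the cells form a type. Levels are in CPM, with the summed UMIs of that side and pool as the total, and fold changes are log2 of neutrophils over the other cells with their standard error. Of 10701 genes tested, 493 were higher in neutrophils (4.61%) and 902 lower (8.43%) at an adjusted p under 0.05 (Benjamini-Hochberg). With DESeq2 they were 431 and 479. Without the asthma pool the counts were 225 and 278, and without the control pool 309 and 462. Lane 2 alone is named below as an alternative that changed 2 things, since its tolerance pool had 8 neutrophils, under the minimum of 10, and only the asthma and control pools were left. The neutrophils' sums held 45517, 21616 and 49019 UMIs in the asthma, tolerance and control pools, against at least 14661349 on the other side, so absence is weakly measured, and 3483 of the genes tested had no neutrophil UMI.

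The 15 genes with the largest rise were seen at 176 CPM or more in every pool of neutrophils and at most 29.0 CPM in any pool of the other myeloid cells. They were higher in every pool and passed the threshold in all 3 comparisons and under all 15 alternatives run for the first. Leading them were 2 stefin genes, inhibitors of cysteine proteases. Gm5483 (ENSMUSG00000079597, chromosome 16) had 857, 925 and 999.6 CPM in the asthma, tolerance and control neutrophils, against 0.0533, 0.477 and 0 CPM in the other myeloid cells, a log2 fold change of 12.24 ± 0.54 (adjusted p = 8.3e-111). Stfa2l1 had 1999, 1064 and 1244 CPM, against 0, 0.750 and 0.126 CPM. The stefin genes stand as near-identical copies on chromosome 16, so how their reads were split between copies is uncertain. Several of the 15, such as these stefins, Mmp9 and Lcn2, had very few UMIs in the other cells. Such genes passed the filter on low counts only through the neutrophils, where they are high. Their p-values are therefore no independent support for the difference.

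Genes of granule proteins and of the histamine-making enzyme came next. Mmp9, the gelatinase of tertiary granules, had 1208, 1064 and 1693 CPM in the asthma, tolerance and control neutrophils, against 0.267, 1.84 and 0.378 CPM in the other myeloid cells (log2 fold change 10.71 ± 0.46, adjusted p = 5.2e-116). Lcn2, a siderophore-binding protein that withholds iron from bacteria, had 923, 1712 and 1183 CPM, against 0.533, 1.57 and 1.01 CPM (10.10 ± 0.45). Hdc, the enzyme that makes histamine, had 1955, 1989 and 1632 CPM, against 2.29, 4.64 and 1.39 CPM (9.34 ± 0.40). In each of these genes the lowest pool of neutrophils lay more than 100 times above the highest pool of the other cells. Mmp9 was found in 53 of 67 neutrophils, against 17 of 8538 other myeloid cells and 6 of 638 B cell-like cells. B cells should lack it, but these classes are no clean background. S100a8 plus S100a9 reached 865 UMIs in a B cell-like cell and 459 in an alveolar macrophage-like cell.

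Another 5 of the 15 encode enzymes, transporters or a lipolysis inhibitor. G0s2, that inhibitor, had 4592, 4672 and 3019 CPM, against 13.7, 9.41 and 29.0 CPM (7.82 ± 0.35). Acod1, which makes itaconate, had 1274, 1480.4 and 938 CPM, against 9.01, 20.9 and 0.945 CPM (7.34 ± 0.40). Arg2, a mitochondrial arginase, had a log2 fold change of 7.15 ± 0.42, the iron exporter Slc40a1 of 7.75 ± 0.65 and the glucose transporter Slc2a3 of 6.52 ± 0.55. The last 2 rest on 37 and 40 neutrophil UMIs.

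The remaining 5 were secreted or surface proteins. Hp, haptoglobin, which binds free haemoglobin, had 2439, 2359 and 2693 CPM, against 10.7, 20.1 and 26.8 CPM (6.92 ± 0.35). Il1r2, a decoy receptor that binds IL-1 without signalling, had 791, 1018 and 1163 CPM, against 14.1, 15.4 and 8.07 CPM (6.16 ± 0.39). Asprv1, an aspartic protease, had a log2 fold change of 8.89 ± 0.45, the interferon-induced membrane protein Ifitm1 of 7.02 ± 0.36 and the class I gene H2-Q10 of 6.51 ± 0.48. Ifitm1 and H2-Q10 have close paralogs, so their counts are uncertain in the same way as those of the stefins.

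**Figure D3:**
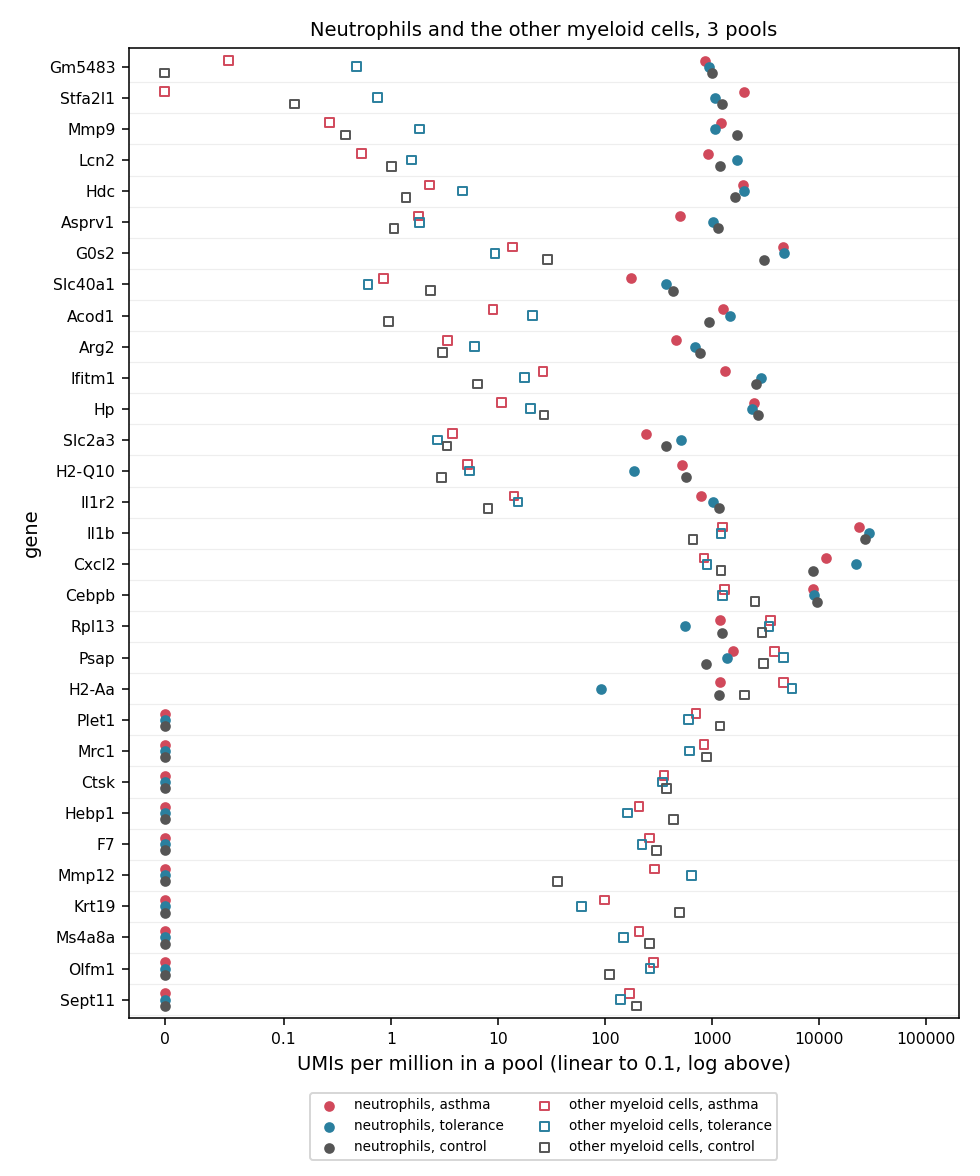
Level of each named gene (y axis) in CPM (x axis, linear to 0.1 and log above) in neutrophils (filled circles) and the other myeloid cells (open squares), with a symbol for each of the asthma, tolerance and control pools. The top 15 genes lie far to the right in neutrophils in every pool, and the bottom 10 have no neutrophil UMI.

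The 10 genes with the largest fall had no neutrophil UMI in any pool, so only a bound can be given, set by 3 UMIs over the 3 neutrophil sums. Several are known from alveolar macrophages. Mrc1, the mannose receptor, had 0 CPM in all 3 neutrophil pools, against 839, 619 and 887 CPM in the other myeloid cells of the asthma, tolerance and control pools, and was at least 30.6-fold lower (adjusted p = 4.5e-23). Plet1, a surface protein of alveolar macrophages, was at least 32.1-fold lower, the cysteine protease gene Ctsk at least 13.9-fold, the elastase gene Mmp12 at least 12.1-fold, and Hebp1, a haem-binding protein, at least 10.3-fold. For F7, Krt19, Ms4a8a, Olfm1 and Sept11 the bounds lay between 6.56-fold and 10.1-fold. All 10 also passed against alveolar macrophage-like cells alone. Against nonclassical monocyte-like cells 0 of the 10 reached the level needed for a test, so their fall is not shown there. Of the 10 genes, 8 passed the threshold under all 15 alternatives, and Krt19 and Mmp12 did not. The call of Krt19 was lost with DESeq2 (adjusted p = 0.10), without the control pool (0.059) and without the block (0.15), and that of Mmp12 without the block (0.15).

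For the list counts here and below, the shares over all 10701 genes tested were 4.61% higher and 8.43% lower. Of those genes 3483 had no neutrophil UMI, so these shares are a loose scale for lists of well-detected genes. A single lower gene, as in the adhesion, NADPH oxidase and glycolysis lists below, is near the second share. The granule genes were counted in 3 lists, by the granule in which their proteins are known to be stored. The 7 primary granule genes were below the level needed for a test. Mpo, Elane, Prtn3, Ctsg, Bpi and Ms4a3 had 0 UMIs among the 116152 neutrophil UMIs, which allows up to 25.8 CPM, and Prss57 had 2 UMIs. Of the 10 secondary granule genes, 6 were tested, and 5 were higher and 1 lower. Lactoferrin (Ltf) and Ngp had 0 UMIs and the cathelicidin Camp 1 UMI, all made early in the marrow. The higher members were Lcn2, Pglyrp1, a peptidoglycan-binding protein (5.70 ± 0.35), the collagenase Mmp8 (3.68 ± 0.44), Cd177 (5 UMIs) and Wfdc21, whose call was lost without the asthma pool (adjusted p = 0.092), without the tolerance pool (0.056), without the block (0.087) and in lane 2 alone, which also lacks the tolerance pool (0.60). Lyz2, lysozyme, which macrophages also make, was lower (-1.96 ± 0.25), with 2944, 1573 and 4345 CPM in the asthma, tolerance and control neutrophils, against 6515, 7702 and 16349 CPM in the other myeloid cells.

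Of 16 genes of tertiary granules and of mature neutrophils, 14 were tested and 13 were higher, and the median log2 ratio was 7.12, beside 0.25 over all genes tested (genes with no neutrophil UMI at their bound). Besides those named above, Slpi, a protease inhibitor, had 5427, 4302 and 5549 CPM, against 349, 228 and 895 CPM (3.41 ± 0.28), and Mxd1, a repressor of Myc targets, had 5.02 ± 0.33. Ccrl2, an atypical receptor that presents chemerin, had 4.28 ± 0.32. Mmp25 had 3 UMIs and did not pass. Several of these genes are known neutrophil markers, so their direction is not independent of how the list was put together.

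The cytokine genes Il1b and Cxcl2 were higher in the neutrophils of every pool. Il1b, the precursor of IL-1β, had 23639.5, 29099 and 26928 CPM in the asthma, tolerance and control neutrophils, against 1248, 1211 and 661 CPM in the other myeloid cells (4.53 ± 0.27, adjusted p = 6.6e-62). All 67 cells held it, with 12 to 99 UMIs and a median of 43, while 62.6% of other myeloid cells and 14.9% of B cell-like cells held any, their median UMIs per cell being 5356 and 1992, and 1670 in neutrophils. With every cell thinned to 1000 UMIs the shares were 100% of 66 neutrophils, 39.1% of other myeloid cells and 9.41% of B cell-like cells. Cxcl2, a ligand of Cxcr2, had 11446, 22113 and 8731 CPM, against 837, 895 and 1212 CPM (3.56 ± 0.27), and was found in 52 of 67 neutrophils. Its UMIs ranged from 0 to 134 in a cell, wider than those of Il1b.

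Of 24 cytokine and chemokine genes, 23 were tested, 9 were higher and 5 lower. Il1rn, which blocks the IL-1 receptor, was also higher (2.07 ± 0.35). Ccl4, a chemokine for monocytes and T cells, was higher by 2.98 ± 0.32, unevenly between pools (below). Ccl3, a ligand of Ccr1, was called higher (1.53 ± 0.37, adjusted p = 0.00055), but its control neutrophils had 0 UMIs and the call was lost without the tolerance pool (log2 fold change 0.30, adjusted p = 0.81), without the asthma pool (0.95, 0.73), at an S100 floor of 40 (0.13, 0.85), without the block (1.89, 0.23), with DESeq2 (1.09, 0.74) and in lane 2 alone (0.72, 0.52). Those lower were Ccl24, an eotaxin (-5.59 ± 0.69), the cytokine Il18 (-5.20 ± 0.88), Cxcl16 (-4.64 ± 0.90), Ccl9 (-3.08 ± 0.58) and Cxcl3. Osm had 0.67 ± 0.34 and Ccl6 -0.58 ± 0.26, which did not pass.

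Several receptors that guide neutrophils were higher. Of 14 chemoattractant receptors, 13 were tested, 7 higher and 2 lower. Ptafr, the receptor for platelet-activating factor, had 571, 648 and 632 CPM, against 45.0, 78.6 and 21.6 CPM (3.71 ± 0.38). C5ar1, the receptor for complement C5a, was also higher, with 769, 1064 and 1061 CPM, against 58.8, 61.0 and 235 CPM. Cxcr4, which holds neutrophils in the marrow, rose by 2.61 ± 0.32 and Ccr1 by 2.46 ± 0.33. Ccr2, a receptor of monocytes, was lower, with 4 neutrophil UMIs. Of the formyl peptide receptors, Fpr1 was higher (1.90 ± 0.44) and Fpr2 did not pass (0.20 ± 0.47), and the difference between them was not tested. The Fpr1 call was lost in lane 2 alone (adjusted p = 0.072) and without the block (0.11).

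Of 14 adhesion genes, 6 were higher and 1 lower, beside 4.61% higher and 8.43% lower over all genes tested. Selplg, the ligand of P-selectin, was higher by 1.85 ± 0.31, and Itgam, the CD11b chain of the integrin Mac-1, by 2.60 ± 0.41. Itgax, the CD11c chain by which cells were sorted, was lower (-1.74 ± 0.42), with 18 UMIs in 11 neutrophils, and its call was lost without the tolerance pool (adjusted p = 0.061), with every class of equal weight (0.053), without the block (0.057) and in lane 2 alone (0.28).

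Of 32 innate receptor genes, 30 were tested, 15 higher and 2 lower. Clec4d, a receptor for mycobacterial glycolipid, had 1648, 1897 and 1102 CPM, against 12.7, 23.7 and 37.7 CPM (5.88 ± 0.36), and its partner Clec4e had 4.81 ± 0.34. Trem1, which amplifies inflammatory signals, rose by 4.69 ± 0.36, Trem3 by 4.80 ± 0.50 and Cd14, the co-receptor for lipopolysaccharide, by 3.07 ± 0.30. Fcgr1, which encodes the CD64 used in the sort, had 1 neutrophil UMI, and Mertk, which encodes MerTK, had 0 in 67 cells, against cells with a UMI in 41.8% of the other myeloid cells. Of 23 genes for interleukin and growth factor receptors, 22 were tested, 6 higher and 0 lower, with Tnfrsf1a, a receptor for TNF, at 2.45 ± 0.35. The 16 others were not called, Csf2rb, the shared chain of the GM-CSF receptor, among them at 0.17 ± 0.36.

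Transcription factors moved in both directions, 12 of 30 higher and 7 lower. Cebpb, a C/EBP factor of emergency granulopoiesis, had 8766, 9021 and 9609 CPM in the asthma, tolerance and control neutrophils, against 1302, 1259 and 2520.4 CPM in the other myeloid cells (2.31 ± 0.25, adjusted p = 1.5e-17). Cebpd rose by 3.42 ± 0.37, the AP-1 factors Junb and Fos by 2.26 ± 0.26 and 1.64 ± 0.26, and Klf2, a factor of quiescence, by 3.16 ± 0.33. Cebpe, which drives secondary granule genes, had 1 UMI. Irf8, a factor of monocytes and dendritic cells, was lower (-2.77 ± 0.64), with 4 neutrophil UMIs.

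Of 26 interferon response genes, 25 were tested, 13 higher and 0 lower. Isg15, a ubiquitin-like protein, had 2021, 2683 and 877 CPM, against 287, 409.6 and 14.3 CPM (3.49 ± 0.32). Rsad2, an antiviral enzyme, had 923, 1342 and 428 CPM, against 66.7, 114 and 2.84 CPM (4.41 ± 0.38). Both were lowest in the control pool on each side. Without the pool as a block the calls of Isg15 (adjusted p = 0.12), Rsad2 (0.078) and Ifit1 (0.23) were lost, the last also without the tolerance pool (0.067), while Ifitm2 (3.46 ± 0.30) and Isg20 (4.40 ± 0.47) kept theirs. The Ifitm and Ifit genes are families of close copies, whose counts are uncertain.

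Of 22 genes of survival and death, 7 were higher and 0 lower. Mcl1, which holds neutrophils alive, rose by 1.81 ± 0.27, the inflammasome sensor Nlrp3 by 3.09 ± 0.35 and the kinase Pim1 by 1.85 ± 0.28. Of 8 NADPH oxidase genes, which make superoxide, 3 were higher, with Rac2 at 2.45 ± 0.31 and Ncf4 at 2.05 ± 0.39, and 1 was lower, the catalytic subunit Cybb (-1.49 ± 0.32), whose call was lost without the tolerance pool (adjusted p = 0.053), without the block (0.083) and in lane 2 alone (0.093). The prostaglandin synthase Ptgs2 had 1406, 1295 and 1612 CPM, against 22.8, 28.6 and 13.2 CPM (5.95 ± 0.36). Of 24 cytoskeleton genes, 7 were higher and 1 lower, and the actin gene Actb (-0.28 ± 0.23) and the thymosin Tmsb4x (-0.09 ± 0.22) did not pass.

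The lists that fell were those of protein synthesis, respiration and antigen handling. Of 25 ribosomal protein genes, 22 were lower and none higher, with a median log2 ratio of -1.35. Rpl13 had 1186, 555 and 1244 CPM in the asthma, tolerance and control neutrophils, against 3491, 3404 and 2921 CPM in the other myeloid cells (-1.91 ± 0.28). Of 20 genes of the respiratory chain, 19 were tested, 14 lower and 0 higher, Atp5a1 at -2.45 ± 0.44 among them. Of 20 glycolysis genes, 19 were tested, 4 higher, among them the lactate exporter Slc16a3 (3.98 ± 0.39) and Pygl, which breaks down glycogen (2.03 ± 0.38), and 1 lower. Of 16 cell cycle genes, 5 were lower and 0 higher, and 10 of them had no neutrophil UMI, Mki67 and Cdk1 included.

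Of 20 lysosome genes, 14 were lower and 0 higher, such as Psap, the saposin precursor, with 1559.9, 1388 and 877 CPM, against 3831, 4663 and 3007 CPM (-1.79 ± 0.27), and the protease gene Ctss (-2.49 ± 0.30). Of 9 MHC class II genes, 7 were lower and 0 higher. H2-Aa had 1186, 92.5 and 1163 CPM, against 4633, 5569.5 and 1993 CPM (-2.39 ± 0.30). It was lowest in the tolerance pool, where no neutrophil held over 5 MHC class II UMIs. Without the 8 cells of at least 1200 genes, the log2 fold change of H2-Aa was -5.31 ± 0.43 and that of Cd74, the invariant chain, was -6.47 ± 0.39, against -2.57 ± 0.28 with them, a call that was lost without the block (adjusted p = 0.099).

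**Figure D4:**
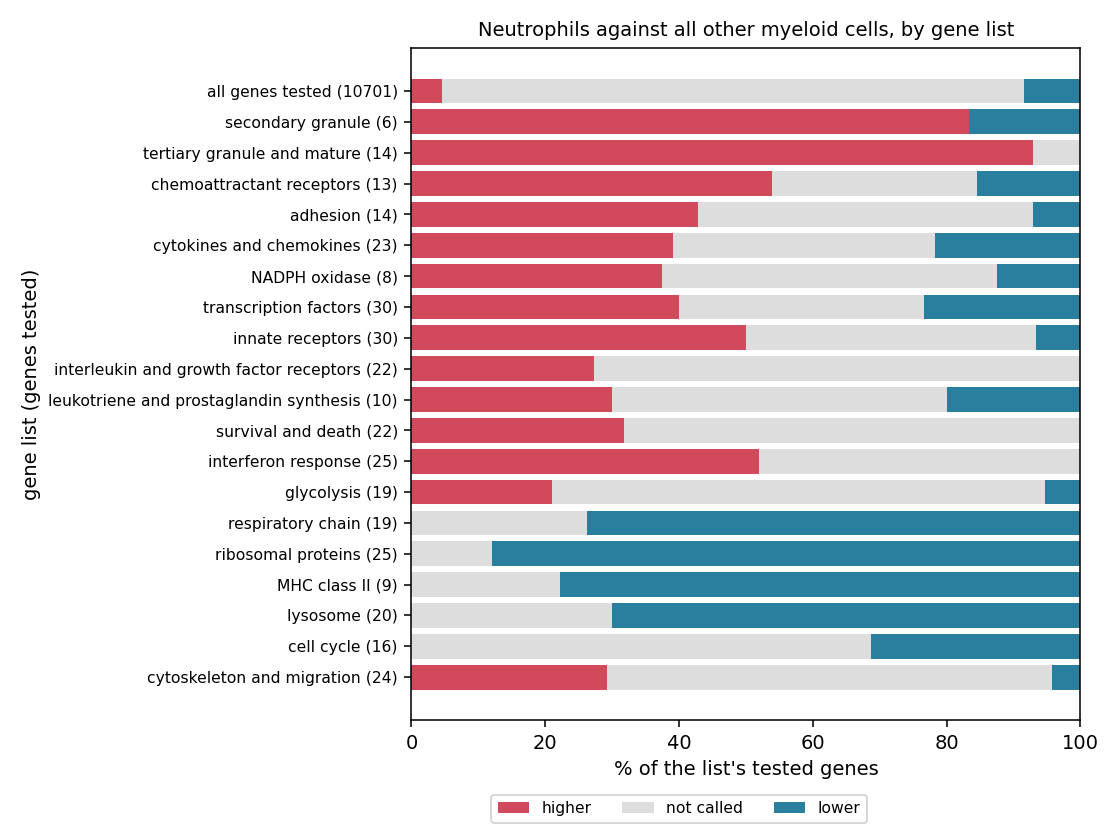
Share of each list's tested genes (x axis, percent) that were higher, not called or lower in neutrophils against all other myeloid cells at an adjusted p under 0.05, with the number tested in parentheses and all 10701 genes at the top for comparison. The secondary and tertiary granule lists show 5 of 6 and 13 of 14 genes higher, and those of respiration, ribosomal proteins, MHC class II and lysosome show lower calls only.

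Nonclassical monocyte-like cells are the myeloid class nearest in median UMIs per cell, and 338 of them gave 2094 genes for a test, 373 higher in neutrophils (17.8%) and 425 lower (20.3%). With the scaling computed over all genes the split was 416 higher and 301 lower. All 15 genes named as higher passed here too, from 3.37 for Hp to 10.93 for Lcn2 (log2). Il1b had 23639.5, 29099 and 26928 CPM in the asthma, tolerance and control neutrophils, against 2373, 2664 and 2993 CPM in nonclassical monocyte-like cells (3.36 ± 0.18). Cxcl2 had 4.35 ± 0.22. Of the ribosomal protein genes tested, 22 of 23 were lower, and of those of the respiratory chain 7 of 18. Ctsd, a lysosomal protease, was higher than in these monocytes (2.26 ± 0.26) but lower than in alveolar macrophage-like cells (-1.74 ± 0.25).

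Against the 5528 alveolar macrophage-like cells, 9510 genes were tested, 617 higher (6.49%) and 873 lower (9.18%), and all 15 named genes passed again, from 7.06 for Arg2 to 12.01 for Stfa2l1. Il1b had 4.71 ± 0.23 and Cebpb 1.96 ± 0.22. H2-Eb1 was not called (0.09 ± 0.29), yet without the 8 cells of at least 1200 genes it was lower (-4.21 ± 0.55, adjusted p = 8.1e-13). Without the tolerance pool it was higher (0.86, adjusted p = 0.023), and so it was in lane 2 alone, which lacks the same pool (1.31, 0.00025). Of the genes tested in all 3 comparisons, 2090, 269 were higher in each and 220 lower in each. They were 54.6% and 24.4% of all 493 and 902 calls against all other myeloid cells, testable in all 3 or not. Of the 902, 188 had no neutrophil UMI, and only 1 such gene was tested against nonclassical monocyte-like cells. The shares are therefore no measure of disagreement. The comparisons share the same neutrophils, and 5528 of the 8538 other myeloid cells were alveolar macrophage-like, so this overlap is a description.

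Markers of other cell types differed in how far they were found in the neutrophils. The 7 eosinophil genes (among them Epx and Prg2), the 7 mast cell and basophil genes and the 7 platelet and erythrocyte genes had 0 UMIs in all pools. The 12 alveolar macrophage genes summed to 681, 601 and 367 CPM in the asthma, tolerance and control neutrophils, against 26211, 23679 and 18105.5 CPM in the other myeloid cells, with 9 of the 12 found and Plet1, Mrc1 and Ctsk at 0, and 3 of the 12 were limited by the rule itself. The 10 monocyte genes summed to 1252, 925 and 734 CPM, against 709.8, 923 and 268 CPM, and without the 8 cells of at least 1200 genes to 511, 868 and 89.9 CPM. The 12 dendritic cell genes summed to 7733, 416 and 6691 CPM, against 28594, 32725.7 and 12165 CPM in the other myeloid cells, and without those cells to 474, 217 and 419.7 CPM. The 8 interstitial macrophage genes, of which 2 were found, summed to 813, 463 and 1204 CPM, against 1659, 4083 and 517 CPM in the other myeloid cells, so the control neutrophils were above and the others below, and without the 8 deep cells to 365, 542 and 599.5 CPM. The 6 endothelial and epithelial genes summed to 0, 370 and 0 CPM, against 80.1, 47.5 and 172 CPM, and the tolerance value rests on 8 UMIs, of which 2 were outside the cell of at least 1200 genes. The 9 T and NK cell genes had 2 UMIs. The part of these transcripts in the results above was not tested. The rule also barred any UMI of C1qa, Fscn1 or Cd3g. The sums for interstitial macrophage, dendritic cell and T cell genes are therefore not independent of the rule. Of 7 B cell genes, Ighm, an immunoglobulin heavy chain, was higher in neutrophils (2.10 ± 0.56) with 18 UMIs, Cd79a was barred by the rule, and the part of free RNA in this was not tested.

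The CLEC12A antibody, a tag on a myeloid inhibitory receptor, gave a mean of 74.5, 74.3 and 71.3 tag UMIs per neutrophil in the asthma, tolerance and control pools, against 49.0, 65.4 and 41.6 in the other myeloid cells. It was higher in neutrophils in 3 of 3 pools, with means over the pools of 73.4 ± 1.82 and 52.0 ± 12.2 (SD, n = 3 pools), a mean log2 ratio of 0.52 and an exact two-sided permutation p of 0.25, the smallest that 3 pairs allow. The lanes differed in the tolerance pool, where lane 1 gave 55.8 in neutrophils, against 60.0 in the other myeloid cells. By class, cDC1-like cells were above neutrophils in every pool, with means of 113, 95.3 and 107. Interstitial macrophage-like cells had 62.2, 75.1 and 66.7, and classical monocyte-like cells 37.2, 48.7 and 82.25, the last from 4 cells. The alveolar macrophage-like, mature dendritic, cDC2-like and nonclassical monocyte-like cells were below neutrophils in every pool. Hashtag UMIs, which do not depend on CLEC12A, had a median of 1125 per neutrophil, between 688.5 per nonclassical monocyte-like cell and 1623 per alveolar macrophage-like cell. As a share of all antibody UMIs the tag took 5.70%, 8.45% and 4.58% in neutrophils, against 3.51%, 4.53% and 2.39% in the other myeloid cells. The transcript Clec12a had 14 UMIs in 12 of 67 neutrophils and did not pass (0.35 ± 0.52).

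Between the pools of neutrophils, the levels describe 1 pool of mice for each treatment and were not tested. A gene was named when it had at least 50 UMIs in the 2 pools and a ratio (with 1 UMI added) past 2 in both lanes. Of 317 genes with enough UMIs in asthma and control neutrophils, 11 were past 2-fold higher in asthma (3.47%) and 8 lower (2.52%), of which 4 and 3 were so in both lanes. Those higher were Isg15 and Rsad2, with 92 and 42 UMIs in asthma neutrophils, against 43 and 21 UMIs in control neutrophils, the survival gene Bcl2a1b (48, against 22) and Rack1, a ribosomal scaffold (34, against 17). Those lower were Klf2, with 35 UMIs in asthma neutrophils, against 122 in control neutrophils, the intermediate filament gene Vim (15, against 72) and Tsc22d3, a glucocorticoid-induced gene (14, against 41). Bcl2a1b has near-identical copies. Lane 1 held only 6 control neutrophils, with no UMI of Bcl2a1b, Rsad2 or Rack1, and without the 8 cells of at least 1200 genes the log2 ratio of Rsad2 was 0.63, against 1.07 with them.

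Tolerance neutrophils were fewer, and 244 genes had enough UMIs with control neutrophils, 9 higher (3.69%) and 15 lower (6.15%). Isg15 had 2683 CPM in tolerance neutrophils (58 UMIs, Poisson 95% interval 2037 to 3469 CPM), against 877 CPM in control neutrophils (43 UMIs, 635 to 1182), and Rsad2 had 1342 CPM, against 428 CPM. Ccrl2 had 3423 CPM, against 938 CPM. Among those lower, Lrg1, a secreted glycoprotein of neutrophil granules, had 231 CPM in tolerance neutrophils (5 UMIs), against 1979 CPM in control neutrophils (97 UMIs), and Klf2 had 1064 CPM, against 2489 CPM. Kctd12 and the kinase gene Stk17b were also lower in both lanes. Isg15 was thus higher and Klf2 lower, in both lanes, in each of the ovalbumin pools than in the same control neutrophils, which both contrasts share. Lane 1 rests on few UMIs. There Isg15 had 16 and 11 UMIs in asthma and tolerance neutrophils, against 2 in control neutrophils, and Klf2 had 8 and 11, against 22. Kctd12 had 3 in tolerance neutrophils of that lane, against 5 in control neutrophils, and Lrg1 had 2, against 14. In the other myeloid cells Isg15 ran in the same order, at 287, 409.6 and 14.3 CPM in the asthma, tolerance and control pools, while Klf2 was level there, at 126, 126 and 132 CPM.

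Of 227 genes with enough UMIs in tolerance and asthma neutrophils, 6 were past 2-fold higher in tolerance (2.64%) and 11 lower (4.85%). Ccr1 had 1480.4 CPM in tolerance neutrophils, against 637 CPM in asthma neutrophils (log2 ratio 1.21, and 0.86 without the cells of at least 1200 genes), and Ccrl2 had 3423 CPM, against 1516 CPM. Cd74 had 2 UMIs in tolerance neutrophils, against 194 in asthma neutrophils, where 1 cell held 327 of the 352 MHC class II UMIs, and its log2 ratio of -4.95 became -1.43 without the cells of at least 1200 genes. The ribosomal protein gene Rpsa had 5, against 59, and its log2 ratio of -2.25 became -0.28 without the cells of at least 1200 genes.

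The chemokines Ccl3 and Ccl4 differed between the pools through few cells. Ccl3 had 48 UMIs in asthma and 52 in tolerance neutrophils, against 0 in control neutrophils, where 0 of 29 cells held a UMI of it at a median of 1584 UMIs per cell (exact 95% interval up to 11.9%, which covers counting error in this pool only). It was found in 6 of 24 asthma and 6 of 14 tolerance neutrophils, and 1 tolerance cell held 43 of the 52 UMIs. Ccl4 had 149 UMIs in asthma and 122 in tolerance neutrophils, against 10 in control neutrophils. A single tolerance cell held 104 of the 122, and asthma cells with 64 and 44 held most of the 149. Cells with a Ccl4 UMI numbered 9 of 24, 4 of 14 and 4 of 29 in the asthma, tolerance and control pools. For scale, 7.21% and 7.37% of B cell-like cells held a Ccl3 or Ccl4 UMI, and after thinning to 1000 UMIs 2.39% and 3.19% did. The neutrophil counts given here are not thinned. In lane 1 the asthma neutrophils had 1 Ccl3 and 2 Ccl4 UMIs, against 0 and 4 in control neutrophils, so the higher asthma levels were seen in lane 2 only.

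Il1b, in contrast, was spread evenly over the cells of each pool, with medians of 43, 39.5 and 45 UMIs per asthma, tolerance and control neutrophil and no cell under 12. Cxcl2 had medians of 17.5, 21 and 8 UMIs, and 3 tolerance cells held 306 of that pool's 478, 134 and 115 of them in the highest pair.

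**Figure D5:**
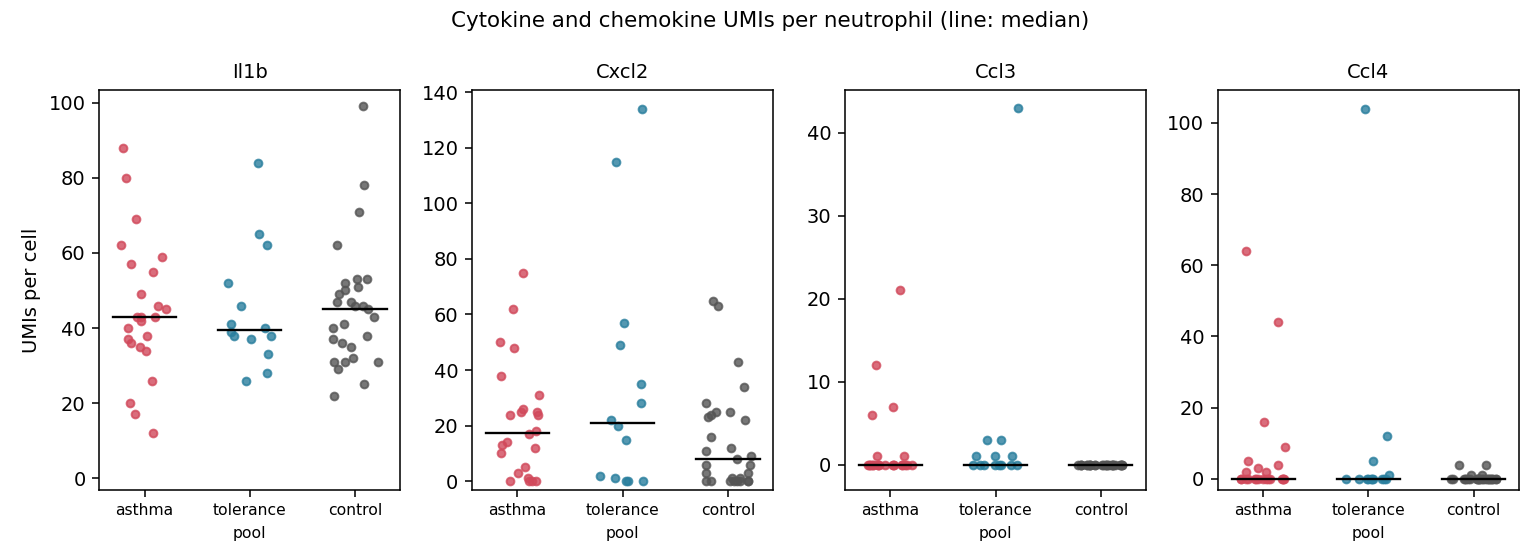
UMIs per cell (y axes) of Il1b, Cxcl2, Ccl3 and Ccl4 in the neutrophils of the asthma, tolerance and control pools (x axes), with a point for each cell and a line at the median. Il1b is present in every cell, Ccl3 is at 0 in all 29 control cells, and single cells hold 43 of the 52 Ccl3 and 104 of the 122 Ccl4 UMIs of the tolerance pool.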

How the data were processed

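Per the labels and the study's methods, the authors made the deposited count matrices with Cell Ranger 3.1.0, which aligns with STAR, against mm10, and split the 3 hashtagged pools of each lane with Seurat 3.1.5. The values are UMI counts per gene and barcode, not normalized, of 31053 genes and 4 antibody entries. The limit of 20% on mitochondrial UMIs was failed by 661 barcodes, the limit of 20000 UMIs by 22 and the floor of 500 genes by 619, some failing more than 1 of them. Other classes were named from marker genes and are rebuilt names. Scrublet scores were computed in each lane. Its automatic limit marked 0.0585% and 0.121% of cells and so did not work, and leaving out the top 2% of scores is an alternative.

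Neutrophil members, gene lists and tests were chosen with earlier results of these data known. UMIs were summed per pool and class and fitted with edgeR 4.0.16 (R 4.3.3) by the quasi-likelihood test, with the pool as a block, since both classes of a pool come from the same mice, and 2 residual degrees of freedom. Adjusted p-values are Benjamini-Hochberg over all genes tested in a comparison. TMM factors were taken from genes with at least 100 CPM on average, because TMM over all genes shifted unchanged genes when tested on simulated data. The 36 genes used to define classes (12.3% of neutrophil UMIs) were left out of library sizes and tests. Genes were named by rule, the 15 largest rises with at least 30 neutrophil UMIs and the 10 largest falls with at least 100 CPM in the other cells, each in the same direction in every pool, besides 2 to 6 members of each list. Of 443 list symbols, 4 matched no row by name and were left out. Some list members are counted but not reported here by name. Summed neutrophil UMIs ranged from 21616 to 49019 per pool. Poisson and exact binomial intervals cover counting error only, and a floor of 3 counts stands for 0. The alternatives were DESeq2 1.42.0, other scalings, no block, no filter on low counts, each pool or lane left out, other limits on cells, and the 8 deepest neutrophils left out, the last and TMM over all genes chosen after the data were seen.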

Additional observations from a re-analysis of the deposited data

Results flagged for a closer look

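In 5 genes the neutrophils of 1 pool lay above the other myeloid cells of that pool in both lanes, and those of another pool lay below them in both lanes. Only genes already picked for description, with at least 50 neutrophil UMIs over the pools, were screened. The 5 are therefore no count over all genes. The difference between pools was not tested, since each treatment was 1 pool. Ccl3 had 1055, 2406 and 0 CPM in the neutrophils of the asthma, tolerance and control pools, against 236, 169 and 354 CPM in the other myeloid cells. The actin gene Actb had 12611, 8003 and 12811 CPM, against 12244, 12897 and 9958 CPM, and the thymosin Tmsb4x had 29022, 21373 and 33232 CPM, against 25412, 26580 and 24863 CPM, both lower in the tolerance pool. The tetraspanin Cd9 had 1538, 1943 and 1224 CPM, against 1756, 1472 and 4013 CPM, and the lysosomal protease Ctsd had 813, 1712 and 918 CPM, against 1716, 1557 and 3963 CPM. In tolerance neutrophils Cd9 rested on 21 UMIs in each lane, and Ctsd on 18 and 19 in lanes 1 and 2. Ctsd was near level there in lane 2, at 1633 CPM, against 1593 CPM in the other myeloid cells. Among the other myeloid cells, Cd9 and Ctsd were highest in the control pool and lowest in the tolerance pool. Alveolar macrophage-like cells were 49.0%, 38.6% and 74.8% of the cells in the asthma, tolerance and control pools, and their part in this was not tested. With 3 pools a group, single pools were not tested as standing apart.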

How the results depend on the processing

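Against all other myeloid cells 493 genes were higher and 902 lower. Leaving out 1 pool gave 225 to 420 higher and 278 to 596 lower, and lane 2 alone, which also lacks the tolerance pool (8 neutrophils), 303 and 435. DESeq2 gave 479 lower. Against nonclassical monocyte-like cells (373 and 425), DESeq2 gave 179 lower and leaving out 1 pool 254 to 465 lower. Against alveolar macrophage-like cells (617 and 873), leaving out 1 pool gave 313 to 556 higher and 321 to 720 lower, and lane 2 alone 415 and 470. Without the pool as a replicate block the counts were 447 and 743, 412 and 498, and 628 and 1037 in the 3 comparisons. TMM over all genes moved the median fitted log2 fold change from -1.34 to -1.56, from -0.27 to -0.11 and from -1.04 to -1.22. Of 117, 101 and 114 called genes among those named, 76, 85 and 84 held their call under every alternative.

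With every class of equal weight, Ccl6 was at 0.82, against -0.58, and Ctsd at 0.25, against -1.23 (log2). Against alveolar macrophage-like cells, Ccl3 was at -0.22 with an S100 floor of 40, and H2-Eb1 at -4.21 without the 8 deepest neutrophils. With a pool left out there, or lane 2 alone without the tolerance pool, Cd74 ranged from -1.87 to 0.49 and H2-Ab1 from -1.44 to 0.40. The cause was not tested. The share in the control pool was 0.354% to 1.38% by lane. A floor of 1200 genes left 0.123%, 0.0445% and 0.102% in the asthma, tolerance and control pools. Genes past 2-fold by lane numbered 5 to 15 higher and 4 to 10 lower in asthma against control, 0 to 12 and 4 to 24 in tolerance against control, and 2 to 7 and 6 to 7 in tolerance against asthma. The genes with enough UMIs were 54 and 253, 32 and 180, and 64 and 129 in lanes 1 and 2, so these counts do not compare the lanes. With a minimum of 100 UMIs the genes past 2-fold numbered 5 and 2 of 162, 5 and 5 of 99, and 3 and 1 of 88. Without the 8 deepest neutrophils, 8 of 166 were lower in tolerance against control and 2 of 141 in tolerance against asthma. Lane 1 alone and a floor of 1200 genes left no pool with 10 neutrophils for a test and were not run. Depth limits what can be said of absence, since 3483 genes tested had no neutrophil UMI.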

Other observations

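Csf3, the gene of the growth factor G-CSF, had 10 UMIs in 3 of the 67 neutrophils, 5 in the asthma pool, 0 in the tolerance pool and 5 in the control pool, against 1 UMI in the 8538 other myeloid cells. Chil1, a chitinase-like protein, had 27 UMIs in 17 neutrophils, against 24 UMIs in 20 other myeloid cells. Both were picked after their values were seen, and neither was tested here.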
